A study of Homo sapiens with 12 samples.

Results

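YAP (gene YAP1) and TAZ (gene WWTR1) are transcriptional coactivators that have no DNA-binding domain of their own and reach their target genes mainly through the TEAD factors. The Hippo kinases, LATS2 among them, phosphorylate both proteins, which keeps them out of the nucleus, and angiomotins such as AMOTL1 and AMOTL2 bind and hold them at cell junctions and actin filaments. Several of these inhibitors are themselves known target genes, alongside the classical readout genes CCN1 (also CYR61), CCN2 (also CTGF) and ANKRD1. The set holds 10 genes listed by name, with earlier results of these data known but with no threshold on measured values, namely the effectors YAP1, WWTR1 and TEAD1, the readout genes CCN1, CCN2 and ANKRD1, the inhibitors AMOTL1, AMOTL2 and LATS2, and AJUBA, a scaffold that binds LATS kinases and restrains them. All 10 were found among the 58662 gene identifiers that could be paired with a symbol, and all 10 passed the filter on low values that left 12830 protein-coding genes to test.

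By the sample titles the RNA came from HEK293T, a human embryonic kidney line that carries the SV40 large T antigen, while the study's text names HEK293. The cells were transfected with a control siRNA (siCTL) or with an siRNA against a single gene (siCARM1, siCHD4, siHDAC2, siGATAD2A or siKDM1A). Each of the 6 groups had 2 libraries, and no other treatment was named. The study's methods list 1 siRNA each for CHD4, HDAC2, GATAD2A and KDM1A, and 2 for CARM1 without saying which was sequenced, so an effect of a single siRNA cannot be told apart from that of its target. CARM1 is an arginine methyltransferase, and CHD4, HDAC2, GATAD2A and KDM1A are subunits or partners of NuRD, a complex that remodels nucleosomes and removes acetyl groups from histones. The comparisons ask how the transcripts of each gene changed when CARM1 or one of the NuRD components was depleted. The sources used here do not say whether the 2 libraries of a group came from separate transfections, so the p-values measure the spread between these libraries, which may be technical. In bulk RNA, fewer cells of a type and less RNA per cell cannot be told apart.

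Each library held between 19308315 and 28648657 read pairs assigned to genes on the sense strand (median 24292682), and every gene of the set had at least 487 of them in every library. The targeted transcript was lower in its own knockdown in all 5 cases, by edgeR's quasi-likelihood test. The log2 fold change was -2.37 for CARM1, -2.35 for HDAC2, -1.74 for GATAD2A and -2.59 for KDM1A, but only -0.54 for CHD4 in siCHD4. In the annotation used here, CHD4 shares 46.9% of its exonic bases with another gene on the same strand, so its count may hold only part of its reads. Whether this bears on the smaller change of CHD4 was not tested. In siCARM1, CHD4 was also lower (-0.32), and in siCHD4, GATAD2A was higher (1.09). Of 7 HEK293T marker genes, 5 exceeded 0.5 FPKM (assigned pairs scaled to exonic length and to the library's total) in at least 1 group, with KRT8, KRT18 and VIM at high levels in every group, while NEFM and PAX2 stayed below it. The summed CPM of these 7 genes ran from 1961 in siGATAD2A to 3247 in siCHD4, and its part in the results was not tested. Of 3 measured markers of blood, endothelial and liver cells none exceeded 0.5 FPKM. Of the markers of MCF-7, a breast cancer line also used in the study, ESR1 had at most 14 counts and TFF1 at most 5 in any library, while GATA3, KRT19, FOXA1 and GREB1 were expressed and the summed CPM of the 7 genes ran from 127 in siGATAD2A to 192 in siCHD4.

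Promoter stretches of 3 genes show the DNA that TEAD factors recognise. They are given here because ANKRD1, CCN2 and YAP1 are the 3 genes with the widest span of level over the groups. In the RefSeq table (GRCh38.p14), which holds 250 bases before and 50 after each start, 8 of the 10 genes had at least 1 window, 11 windows in all. The stretches below run 5′ to 3′ on the strand of the gene, and capitals mark the TEAD motif GGAATG, searched on both strands. The CCN2 stretch is chr6:131951452-131951551 (minus strand), that of ANKRD1 is chr10:90921200-90921317 (minus strand), and that of YAP1 is chr11:102110275-102110300 (plus strand).
CCN2: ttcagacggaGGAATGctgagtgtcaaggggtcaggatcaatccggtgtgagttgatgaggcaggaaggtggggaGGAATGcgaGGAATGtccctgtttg
ANKRD1: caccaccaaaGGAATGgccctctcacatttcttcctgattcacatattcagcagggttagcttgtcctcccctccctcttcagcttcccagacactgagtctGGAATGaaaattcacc
YAP1: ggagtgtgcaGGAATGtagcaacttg

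CCN2 carried 3 copies of the motif, which began at positions -169, -104 and -95 from its start, the last pair separated by 3 bases. ANKRD1 carried 2, at -220 and -128, with 1 match to the AP-1 motif TGANTCA between them at -195. YAP1 itself had 1 copy at -162. Single copies were also found in 1 of 2 windows of AMOTL2 (-69, on the reverse strand), in 1 of 2 windows of AJUBA (-59) and in LATS2 (position 10 after the start). The windows of WWTR1 and AMOTL1 held none, and TEAD1 and CCN1 had no entry. In all, 6 of the 11 windows (54.5%) held a TEAD motif against 14.0% of all 35116 windows of the table, whereas 9.09% against 7.71% held the AP-1 motif and 0 of 11 against 1.29% the CArG box of serum response factor. WWTR1, AMOTL2 and AJUBA count with 2 windows each, and the set includes known target genes, so its TEAD share is no separate support. Of the lists described below, the TEAD motif was in 38.5% of 13 windows of other YAP and TAZ target genes. For the list of serum response factor, its cofactors and its targets it was in 23.1% of 26 windows. Among the Hippo kinases and scaffolds it was in 14.3% of 21 windows. A match describes letters in a window and is not evidence of binding.

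The genes differed widely in abundance. In siCTL, CCN2 was the most abundant per length at 55.3 ± 3.25 FPKM (SD, n = 2), ahead of AMOTL1 (36.3 ± 0.650 FPKM) and AMOTL2 (34.0 ± 1.52 FPKM). YAP1 stood at 31.2 ± 0.231 FPKM and WWTR1 at 7.54 ± 0.227 FPKM, so that the transcript of YAP was the more abundant of the 2 coactivators. LATS2 was lowest at 4.75 ± 0.281 FPKM. In siCHD4 the order changed, with ANKRD1 at 130.1 ± 2.06 FPKM above CCN2 at 105.1 ± 0.438 FPKM, and YAP1 at 13.8 ± 0.568 FPKM.

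The 10 genes were called in both directions in 4 of the 5 knockdowns and only as higher in siKDM1A. A gene was called lower or higher at an adjusted p of 0.05 or less (edgeR's quasi-likelihood test, Benjamini-Hochberg over all 12830 genes) together with a fold of at least 1.2. In siCARM1, 2 genes were lower and 4 higher, where 14.5% of all genes tested were lower and 14.9% higher. In siCHD4, 2 were lower and 5 higher, against 24.9% and 24% of all genes. In siHDAC2, 5 were lower and 1 higher, against 9% and 10.6%, and in siGATAD2A 3 were lower and 5 higher, against 18.2% and 15.7%. In siKDM1A, 0 were lower and 4 higher, against 11.5% and 14.2%; the 4 were YAP1, CCN1, LATS2 and ANKRD1. With no fold minimum 3 genes were lower in siKDM1A (WWTR1, TEAD1 and AMOTL2), where 2618 of all 12830 genes were lower. Under that rule 5 were lower in siCARM1, where 2962 of all genes were. The median log2 fold change of the 10 genes was lowest for siHDAC2 at -0.31 and stood at -0.03 for siCARM1, with 0.15 for siKDM1A, 0.18 for siGATAD2A and 0.22 for siCHD4, where that of all genes lay between -0.002 and 0.005. All 5 comparisons share the siCTL libraries.

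**Figure D1:**
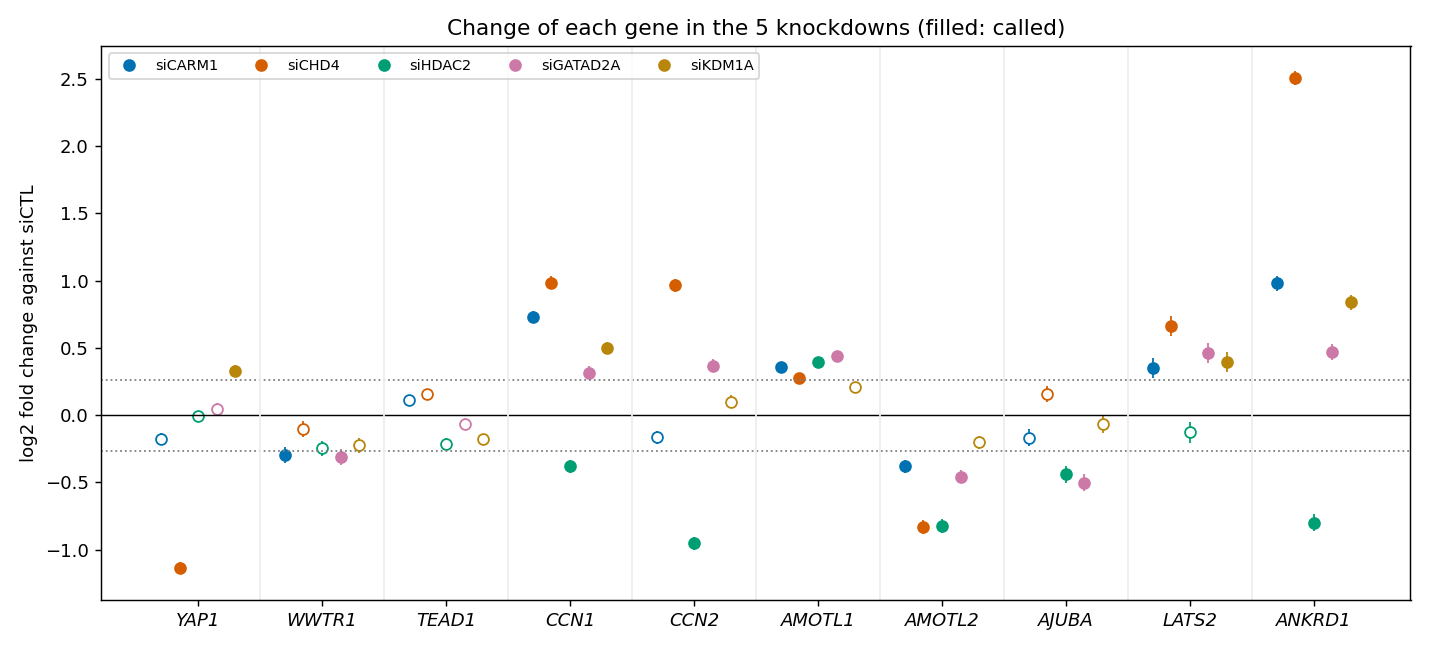
Log2 fold change against siCTL (y axis) of the 10 genes (x axis) in the 5 knockdowns (colours, 2 libraries per group), with bars of 1 SE; filled points were called and dotted lines mark a fold of 1.2. CCN1, CCN2 and ANKRD1 lie above 0 in siCHD4 (0.98, 0.96 and 2.50) and below it in siHDAC2 (-0.38, -0.95 and -0.80).

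YAP1 (ENSG00000137693.14, chr11:101981178-102104155, plus strand, GRCh37, as for the genes that follow), the YAP transcript itself, was lowest in siCHD4. Its level was 209 and 208 CPM (counts scaled to the library's TMM-adjusted total) in the siCTL libraries, 182 and 186 in siCARM1, 97.5 and 91.9 in siCHD4, 209 and 206 in siHDAC2, 218 and 213 in siGATAD2A, and 254 and 269 in siKDM1A. Both siCHD4 libraries lay below, and both siKDM1A libraries above, every other library. The log2 fold change against siCTL was -1.14 ± 0.05 (SE) in siCHD4 (adjusted p = 1.65e-19, a 2.20-fold lower level) and 0.33 ± 0.04 in siKDM1A (adjusted p = 2.99e-07). In siCARM1 the difference of -0.18 had an adjusted p of 0.0011 but fell short of the fold minimum. The siHDAC2 (-0.01) and siGATAD2A (0.05) values were not called. YAP1 was called in 7 of the 10 comparisons between knockdowns, and it was 1.47 higher on the log2 scale in siKDM1A than in siCHD4.

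WWTR1 (ENSG00000018408.15, chr3:149235022-149454501, minus strand), which encodes TAZ, moved little. It read 67.9 and 65.4 CPM in siCTL, 55.6 and 52.8 in siCARM1, 62.1 and 62.0 in siCHD4, 57.7 and 54.7 in siHDAC2, 52.8 and 54.6 in siGATAD2A, and 57.5 and 56.5 in siKDM1A. All 10 knockdown libraries lay below both control libraries, yet only siCARM1 (-0.30 ± 0.06, adjusted p = 8.38e-05) and siGATAD2A (-0.31 ± 0.06, adjusted p = 3.47e-05) passed the fold minimum. No comparison of WWTR1 between 2 knockdowns was called. An offset of the 2 shared control libraries cannot be told apart from a change common to the knockdowns. In siCHD4, where YAP1 fell by 1.14 on the log2 scale, the WWTR1 value was -0.10 (adjusted p = 0.111).

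TEAD1 (ENSG00000187079.20, chr11:12695968-12966284, plus strand), a DNA-binding partner of YAP and TAZ, was called in none of the 5 knockdowns against siCTL. The other TEAD factors are given further below. It read 296 and 293 CPM in siCTL and ranged over the other libraries from 250 and 258 in siHDAC2 to 329 and 328 in siCHD4. Its log2 fold changes ran from -0.21 in siHDAC2 to 0.16 in siCHD4, of which those in siCARM1, siCHD4, siHDAC2 and siKDM1A had an adjusted p under 0.05 but a fold under 1.2. Set directly against each other, siHDAC2 was lower than siCHD4 by -0.37 ± 0.04 (adjusted p = 1.69e-09, called).

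ANKRD1 (ENSG00000148677.7, chr10:92671853-92680844, minus strand), an ankyrin-repeat protein of muscle and nucleus whose transcript is a sensitive readout of YAP and TAZ, had the widest span of the 10 genes. It read 46.4 and 43.1 CPM in siCTL, 88.4 and 87.9 in siCARM1, 251 and 256 in siCHD4, 25.1 and 26.2 in siHDAC2, 61.2 and 62.5 in siGATAD2A, and 77.9 and 81.7 in siKDM1A. No library of 1 group overlapped with those of another. The log2 fold change was 2.50 ± 0.05 in siCHD4 (adjusted p = 2.28e-26, 5.67-fold), 0.98 ± 0.06 in siCARM1, 0.47 ± 0.06 for siGATAD2A and 0.84 ± 0.06 for siKDM1A, and it was -0.80 ± 0.06 in siHDAC2 (adjusted p = 3.03e-11). Its mean CPM in siCHD4 was 9.88-fold that in siHDAC2. In the order of the 6 groups, siKDM1A and siCARM1 were the neighbours not separated by the call rule (adjusted p = 0.0292, fold under 1.2).

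CCN1 (ENSG00000142871.18, chr1:86046444-86050272, plus strand), which was called in every knockdown, encodes a secreted matricellular protein that signals through integrins. It read 118 and 117 CPM in siCTL, 199 and 190 in siCARM1, 235 and 229 in siCHD4, 91.2 and 89.4 in siHDAC2, 150 and 142 in siGATAD2A, and 171 and 162 in siKDM1A. As for ANKRD1, siHDAC2 lay below the control libraries and the other 4 knockdowns above them. Its log2 fold change was -0.38 ± 0.05 in siHDAC2, 0.31 ± 0.05 in siGATAD2A, 0.50 ± 0.05 in siKDM1A, 0.73 ± 0.05 in siCARM1 and 0.98 ± 0.05 in siCHD4 (adjusted p between 7.6e-18 and 1.53e-06). In the order of the groups, siGATAD2A and siKDM1A, siKDM1A and siCARM1, and siCARM1 and siCHD4 were neighbours that differed by less than 1.2-fold and were not called.

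CCN2 (ENSG00000118523.6, chr6:132269316-132272512, minus strand), the relative of CCN1 that acts in matrix production, departed from this order in siCARM1 and siKDM1A, in neither of which it was called. It read 131 and 143 CPM in siCTL, 122 and 123 in siCARM1, 267 and 268 in siCHD4, 71.6 and 70.1 in siHDAC2, 182 and 172 in siGATAD2A, and 146 and 148 in siKDM1A. The siHDAC2 libraries lay below, and the siCHD4 libraries above, all others. The log2 fold changes were -0.95 ± 0.05 in siHDAC2 (adjusted p = 2.33e-15) and, in siCHD4, 0.96 ± 0.05 (adjusted p = 1.36e-17). The siGATAD2A value was 0.37 ± 0.05 (adjusted p = 1.03e-07). In siCARM1 the value was -0.16 ± 0.05 and in siKDM1A 0.10 ± 0.05, and siKDM1A was lower than siGATAD2A (-0.27, adjusted p = 1.6e-05, called), where CCN1 and ANKRD1 had positive differences (0.18, not called, and 0.37, called). CCN2 shares 11.9% of its exonic bases with LINC01013 on the opposite strand, which the strand-specific counts keep apart.

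**Figure D2:**
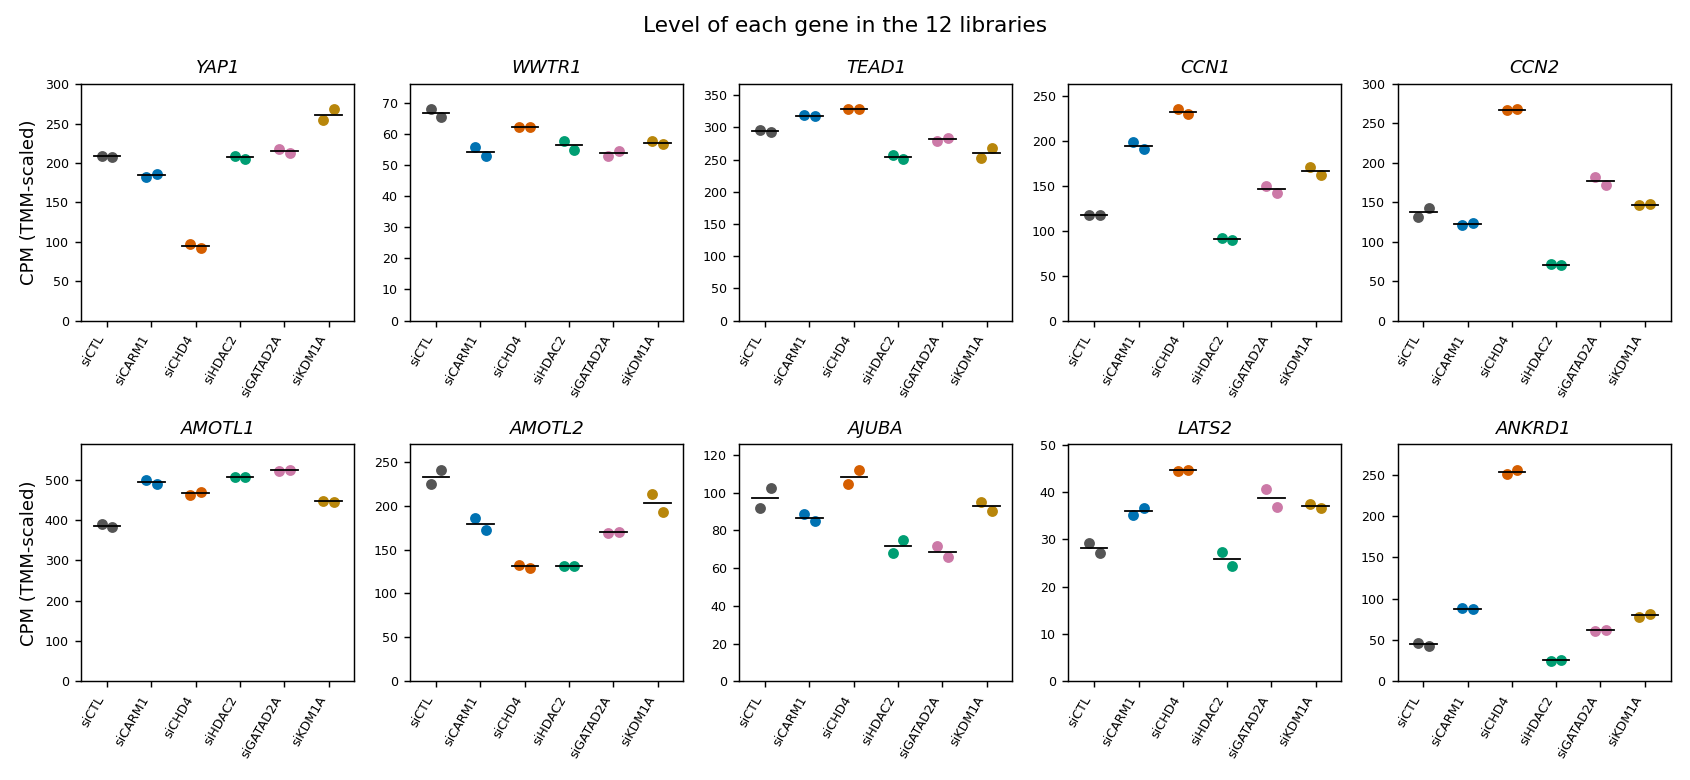
Level in CPM (y axis, from 0, TMM-scaled) of each of the 10 genes in every library (points, 2 per group), with the group mean as a line. ANKRD1 runs from 25.1 CPM in siHDAC2 to 256 in siCHD4, while WWTR1 stays between 52.8 and 67.9 CPM in all 12 libraries.

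The direct comparison of siHDAC2 with siCHD4 gave the widest separation of the readout genes among the 10 pairs of knockdowns. ANKRD1 was -3.30 ± 0.06 (adjusted p = 7.73e-29), CCN2 -1.92 ± 0.05 (adjusted p = 1.17e-24) and CCN1 -1.36 ± 0.05 (adjusted p = 2.84e-21) in siHDAC2 relative to siCHD4, while YAP1 was 1.13 ± 0.05 higher (adjusted p = 1.65e-19). CCN1, CCN2 and ANKRD1 were lower in siHDAC2 than in each of the other 4 knockdowns, all called.

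Between siHDAC2 and siCHD4, 7 of the 10 genes were called, where 48.8% of all genes tested were. The siCHD4 libraries also differed from siCARM1 in 6 of the 10 genes (background 47.7%), from siGATAD2A in 6 (44.8%) and from siKDM1A in 7 (47.7%). The siHDAC2 libraries differed from siCARM1 in 7 (19.3%), from siGATAD2A in 5 (29.5%) and from siKDM1A in 7 (14.3%). Fewer genes separated the remaining pairs, 4 for siGATAD2A and siCARM1 (33.8%), 4 for siKDM1A and siGATAD2A (32.1%) and 2 for siKDM1A and siCARM1 (21%), the latter being YAP1 and TEAD1.

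LATS2 (ENSG00000150457.9, chr13:21547175-21635725, minus strand), a kinase that phosphorylates YAP and TAZ and that is itself a known target gene, read 29.3 and 27.1 CPM in siCTL, 35.2 and 36.7 in siCARM1, 44.6 and 44.7 in siCHD4, 27.4 and 24.4 in siHDAC2, 40.7 and 36.8 in siGATAD2A, and 37.5 and 36.6 in siKDM1A. Both libraries of siCARM1, siCHD4, siGATAD2A and siKDM1A exceeded the control libraries. It was called higher in those 4 knockdowns, from 0.35 ± 0.08 in siCARM1 to 0.67 ± 0.07 in siCHD4 (adjusted p = 3.49e-09), and its siHDAC2 value was -0.13 (adjusted p = 0.222).

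The 2 angiomotins AMOTL1 and AMOTL2, related scaffold proteins that bind YAP at cell junctions, moved in opposite directions. AMOTL1 (ENSG00000166025.18, chr11:94439597-94609913, plus strand) read 390 and 382 CPM in siCTL, 500 and 489 in siCARM1, 462 and 470 in siCHD4, 507 and 506 in siHDAC2, 522 and 524 in siGATAD2A, and 447 and 444 in siKDM1A. AMOTL2 (ENSG00000114019.15, chr3:134074189-134094321, minus strand) read 225 and 241 CPM in siCTL, 186 and 172 in siCARM1, 133 and 129 in siCHD4, 131 and 132 in siHDAC2, 169 and 170 in siGATAD2A, and 213 and 192 in siKDM1A. Every knockdown library lay above both control libraries for AMOTL1 and below both for AMOTL2. AMOTL1 was called higher in 4 knockdowns, up to 0.44 ± 0.04 in siGATAD2A (adjusted p = 9.97e-12), and AMOTL2 lower in the same 4, down to -0.83 ± 0.05 in both siCHD4 (adjusted p = 3.64e-15) and siHDAC2 (adjusted p = 5.97e-14). In siKDM1A the values were 0.21 for AMOTL1 and -0.20 for AMOTL2, both under the fold minimum. The AMOTL1 call in siCHD4 (0.27, a fold of 1.21) lay just above the fold minimum. Its value fell just under that minimum without the siCHD4 or the siCTL library numbered 2 (0.25 and 0.26). It did so too with all libraries kept and a filter that took coding genes with at least 1 count (0.25). AMOTL1 was called in 0 of the 10 comparisons between knockdowns, and AMOTL2 in 6.

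AJUBA (ENSG00000129474.16, chr14:23440386-23451760, minus strand), a LIM-domain scaffold that restrains LATS kinases and so favours YAP and TAZ, was lower in siHDAC2 and siGATAD2A. It read 91.9 and 102 CPM in siCTL, 88.5 and 84.7 in siCARM1, 105 and 112 in siCHD4, 67.9 and 75.1 in siHDAC2, 71.6 and 65.8 in siGATAD2A, and 95.1 and 90.4 in siKDM1A. The siHDAC2 and siGATAD2A libraries lay below all others. The log2 fold change was -0.44 ± 0.06 in siHDAC2 (adjusted p = 1.47e-06) and -0.50 ± 0.06 in siGATAD2A (adjusted p = 4.68e-08), and the values in siCARM1 (-0.17), siCHD4 (0.16) and siKDM1A (-0.07) were not called.

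Over all 5 comparisons with siCTL, 12 of the 50 tests of the set were lower and 19 higher (24% and 38%), against 15.6% and 15.9% of the 64150 tests of all genes. The shares of all genes were not matched to the set for level. The 50 tests share the siCTL libraries and genes that ran together, so they are not separate results. Another 17 target genes of YAP and TAZ, of which 15 passed the filter (NT5E and RBMS3 did not), were called lower in 9 and higher in 27 of 75 tests (12% and 36%). They were called higher most often in siCARM1 (1 lower and 9 higher of 15, median log2 fold change 0.38) and siCHD4 (2 lower and 9 higher, median 0.41). Of all genes tested, 14.5% were lower and 14.9% higher in siCARM1, and 24.9% and 24% in siCHD4. In siHDAC2 3 were lower and 2 higher (median -0.07, all genes 9% and 10.6%). In siGATAD2A 2 were lower and 4 higher (0.07, all genes 18.2% and 15.7%), and in siKDM1A 1 and 3 (-0.02, all genes 11.5% and 14.2%). F3, which encodes tissue factor, changed by 1.54 ± 0.16 in siCHD4 and 0.60 ± 0.17 in siCARM1, and IGFBP3, a binding protein of insulin-like growth factors, by 1.59 ± 0.14 and 1.01 ± 0.15. TGFB2, a ligand of the TGF-β family, was lower in siHDAC2 (-0.53) and higher in siCARM1 (0.65), siCHD4 (0.68) and siGATAD2A (0.79), all called. CCDC80, a secreted matrix protein, was higher in siCARM1 (0.50), siCHD4 (0.46), siHDAC2 (0.56) and siKDM1A (0.74). Its level ran only from 0.364 to 0.770 FPKM over the libraries, around the filter limit of 0.5. It may have passed the filter only through groups where it was higher, so these calls carry little weight.

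Upstream of YAP and TAZ, the 17 Hippo kinases and scaffolds, all tested, were lower in 4 and higher in 12 of 85 tests (4.71% and 14.1%, against 15.6% and 15.9% over all genes), with medians from -0.05 to 0.11. WWC1 (KIBRA), a scaffold that activates LATS kinases, was higher in siCHD4 (0.77 ± 0.06), siGATAD2A (0.62) and siKDM1A (0.49). AMOT, the third angiomotin, was lower in siCHD4 (-1.12 ± 0.06, adjusted p = 7.05e-17) and not called in the other 4 knockdowns. MAP4K4, a kinase acting on LATS, was higher in siCARM1 (0.28), siCHD4 (0.29) and siHDAC2 (0.40), and WTIP, a LIM protein related to AJUBA, in siCARM1 (0.34), siCHD4 (0.48) and siGATAD2A (0.36).

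STRIPAK is the phosphatase complex that restrains the Hippo kinases. Its 8 genes were lower in 9 and higher in 3 of 40 tests (22.5% and 7.5%, against the same 15.6% and 15.9%). MOB4 was lower in all 5 knockdowns, between -0.56 ± 0.10 in siCARM1 (adjusted p = 3.58e-05) and -0.28 ± 0.10 in siCHD4 (adjusted p = 0.0131). SIKE1 was lower in siCHD4 (-0.70), siGATAD2A (-0.38) and siKDM1A (-0.47). STRN3 was higher in siCARM1 (0.40), and SLMAP in siCHD4 (0.37) and siGATAD2A (0.27).

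Among 5 other TEAD factors and cofactors, 4 of 25 tests were lower and 2 higher (16% and 8%, where all genes gave 15.6% and 15.9%). VGLL3, a cofactor that competes with YAP and TAZ for TEAD proteins, was lower in siGATAD2A (-1.08 ± 0.10, adjusted p = 5.76e-11) and siKDM1A (-0.41). TEAD3 was lower in siCARM1 (-0.32) and siHDAC2 (-0.29), TEAD4 higher in siCHD4 (0.37) and VGLL4 higher in siGATAD2A (0.28).

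Serum response factor (SRF) and its actin-sensing cofactors MRTF drive a programme that shares genes with YAP and TAZ, and ANKRD1, CCN1 and CCN2 are known to respond to both. The list of 16 genes for that programme also holds SRF, MRTFA and MRTFB themselves. Its genes were lower in 8 and higher in 21 of 80 tests (10% and 26.2%, against 15.6% and 15.9% over all genes). In siCHD4 and in siKDM1A, 1 was lower and 8 higher, with medians of 0.32 and 0.28, where 24% and 14.2% of all genes were higher. CNN1, a smooth-muscle calponin, changed by 2.91 ± 0.17 in siCHD4 (adjusted p = 8.55e-16), from 46 and 69 counts in the siCTL libraries to 479 and 522, and by 0.76 ± 0.20 in siCARM1. The related CNN2 was lower in siHDAC2 (-0.93), siGATAD2A (-0.87), siCARM1 (-0.35) and siKDM1A (-0.34). MYL9, a myosin light chain, was higher in siCHD4 (0.67) and siKDM1A (0.70), and FHL2, a LIM-domain cofactor, in siCARM1 (0.43), siCHD4 (0.79) and siKDM1A (0.36).

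Across the 12 libraries, which share 2 controls and 5 knockdowns, log2 CPM of CCN1 ran with that of ANKRD1 (Pearson r = 0.953) and LATS2 (r = 0.906), and CCN2 with ANKRD1 (r = 0.874) and LATS2 (r = 0.858). YAP1 ran against ANKRD1 (r = -0.742) and CCN2 (r = -0.598). The siCHD4 group held both the lowest YAP1 level and the highest ANKRD1 and CCN2 levels. In siKDM1A, YAP1 and ANKRD1 were both called higher, whereas in siCARM1 ANKRD1 was called higher with YAP1 at -0.18 (not called). The correlations without siCHD4 were not computed. Libraries of the same group lie close together, so all these correlations describe 6 groups and carry no p. Among all tested genes, those most like CCN1 were CYP24A1 (r = 0.985), TRAP1, CBX6, ANKRD1 and TOR1AIP2 (r = 0.951). The nearest to CCN2 were ALAS1 (r = 0.977), CRCP, DUSP4, ETV4 and ZDHHC5 (r = 0.958), and those nearest to YAP1 were ARRB2 (r = 0.987), MVB12A, KIF3C, PLEKHG1 and MIEN1 (r = 0.974).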

How the data were processed

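RNA of the siRNA-transfected cells (HEK293T by the sample titles) was made into strand-specific libraries (NEBNext directional kit). They were sequenced as read pairs at one of 2 companies, and which library went where is not given in the sources used here. Per the labels' processing notes, the authors used CASAVA 1.4, STAR 2.7.10 and the build hg19, and deposited read counts per gene for each library, in total and for each strand. The reverse-strand column was used, and the opposite-strand total equalled 7.93% to 8.40% of it. Rows that name no gene stayed out of library sizes, namely unmapped (2.66% to 3.42% of read pairs), multimapping (5.44% to 10.6%), featureless (17.2% to 21.2%) and ambiguous pairs (5.50% to 6.22%). The annotation release behind the counts is not given in the sources used here. Of 60660 identifiers, 44 Y copies of the pseudoautosomal region were left out, 58662 matched GENCODE release 44 on GRCh37, and 1954 did not. Exonic lengths from that annotation, merged over transcripts, gave FPKM. The 2 siCTL libraries had the lowest featureless shares (17.2% and 18.0%) and the highest shares of counts on unmatched identifiers (2.61% and 2.58%). The siCTL library numbered 1 also had the highest multimapping share (10.6%). The part of these differences in the results was not tested.

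Coding genes above 0.5 FPKM in the mean of at least 1 group were tested with edgeR 4.0.16 (R 4.3.3), by quasi-likelihood with TMM scaling, 6 group means over 12 libraries and Benjamini-Hochberg adjustment within a comparison. Calls took the study's limits, 0.05 for the adjusted p and 1.2 for the fold. SE is the log2 fold change divided by the root of F. With 2 libraries against 2 the design could reach no exact permutation p below 0.333. The fit was tested on simulated data. DESeq2 1.42.0, other scalings, filters and left-out libraries were alternatives.

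The genes and pathway lists were taken by name, with no threshold on values; they and the rule for naming were chosen with earlier results of these data known. Named were the 10 genes, the targeted genes, up to 4 genes of each list with the largest absolute mean log2 fold change among those called at least once, and the 5 genes with the highest Pearson r to YAP1, CCN1 and CCN2. Proteins were not compared.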

Additional observations from a re-analysis of the deposited data

How the results depend on the processing

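Of 50 log2 fold changes of the 10 genes against siCTL, 31 were called, and 30 of these kept direction and call in all 21 alternatives. The exception was AMOTL1 in siCHD4, at 0.25 among coding genes with at least 1 count, 0.26 without siCTL replicate 2 and 0.25 without siCHD4 replicate 2, all under the fold minimum. Not all alternatives could readily undo a call. Many left out a library of neither group compared, and dropping the fold minimum can only add calls. WWTR1 in siHDAC2 became called with a filter on every gene type (-0.27), without siCTL replicate 2 (-0.28) and without siHDAC2 replicate 1 (-0.29), and AMOTL2 in siKDM1A without siKDM1A replicate 1 (-0.28). Sign turned for values near 0, YAP1 in siHDAC2 with strand ignored (0.0127) and AJUBA in siKDM1A without siCTL replicate 2 (range without a siCTL or siKDM1A library -0.14 to 0.00986); the cause was not tested. Leaving out 1 library moved several counts of the 10 genes called, both against siCTL (siKDM1A, siCHD4 and siHDAC2) and between knockdowns. Without a fold minimum the rule calls more genes by construction. Of all 12830 genes, 2962 were lower and 3030 higher in siCARM1, and 2256 and 2283 in siHDAC2. In siGATAD2A 3272 were higher, and in siKDM1A 2618 were lower and 2814 higher. Of the 10 genes, 5 were lower in siCARM1 and 3 in siKDM1A. Between knockdowns, 7 were called for siKDM1A and siCARM1, 10 for siGATAD2A and siCHD4, and 8 for siKDM1A and siGATAD2A. The shares of all genes for these pairs without a fold minimum were not computed. The pair counts therefore cannot be read as a result about the set.

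Libraries with the same replicate number shared little deviation, and 1 of 15 pairs of groups had a correlation of deviations above 0.1 (range -0.12 to 0.14). This check cannot tell whether the libraries were prepared in pairs. With the replicate block, 2331 genes were lower and 2009 higher in siGATAD2A (2339 and 2012 without it), and no count of the 10 genes moved by over 1.5 times.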
